A study of Mus musculus with 2 samples.

Results

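Interleukin 33 and its relatives of the IL-1 family were examined in the Ago2-bound RNA of TM4 Sertoli cells, through 10 genes of the 22609 in each count table. The members were the ligand genes Il33, Il1a, Il1b and Il18, the antagonist gene Il1rn, the receptor genes Il1rl1, Il1rap and Il1r1, and the signalling genes Myd88 and Irak1. Il33 was chosen by its read counts in these same libraries, where its ratio was among the largest, and the other 9 genes were listed for their place in the family with those results known. The ratio of Il33 is therefore given as a description. TM4 is an established mouse cell line with Sertoli origin. Cultures received either a mimic of miR-471-5p or a scramble control by transfection and were collected after 48 h, and RNA bound by Ago2 was pulled down with an antibody and sequenced. Each treatment had 1 library, so no difference below has a replicate check, and RNA from before the pull-down was not analysed here. The RNA of a whole culture was counted, so a gene expressed by a small number of cells and one expressed weakly by every cell cannot be told apart. An altered mRNA level and an altered association with Ago2 cannot be told apart either.

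The IL-1 family consists of cytokines that act through paired receptor chains. IL-33 is stored in the nucleus of barrier and stromal cells, is released when such cells are damaged, and binds the receptor ST2, the product of Il1rl1. ST2, like the IL-1 receptor encoded by Il1r1, signals only together with the accessory chain encoded by Il1rap. The assembled receptors recruit the adaptor MyD88 and IRAK kinases, and the pathway runs through TRAF6 and TAK1 to NF-kB. In the testis, cytokines of this family are known as messengers between Sertoli cells and germ cells, and IL-1α is the member best known from Sertoli cells.

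The strand of miR-471-5p that the mimic is meant to supply is shown first. Its loading into Ago2 was not examined here. The site in the Il33 mRNA that matches the seed of this miRNA follows, with sites in other genes of the pathway for comparison. In the miRNA, bases 2 to 8 (the seed) are in capitals. In the mRNA sites, given in DNA letters from 5′ to 3′, capitals mark the bases that match the seed.
mmu-miR-471-5p: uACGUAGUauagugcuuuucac
Il33, 3′-UTR, 8mer: gatatctttaaagtagtaACTACGTAgtca
Irak3, 3′-UTR, 6mer: actctccctctgcgcatgccCTACGTcctt
Rela, 3′-UTR, 6mer: agtgctcccaagagcagctcCTACGTggtg
Chuk, coding region, 8mer: tatgggctgaagcagtgcACTACGTAtctg
Ptgs2, coding region, 7mer-m8: atcaagatagtgatcgaagACTACGTgcaa

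The RefSeq annotation of GRCm38.p6 places the miRNA at 66792634 to 66792655 of chromosome X, minus strand. Il33 lies on the plus strand of chromosome 19 from 29925114 to 29960718 in the GENCODE annotation of GRCm38, and its site occupies 29960641 to 29960648 in exon 8 of 8. An 8mer match (ACTACGTA) is complementary to the whole seed and is followed by A, a 7mer-m8 match (ACTACGT) lacks that A, and a 6mer match (CTACGT) pairs with bases 2 to 7 of the miRNA. Each motif was searched on the mRNA strand, and every 8mer also holds the shorter matches. In Il33 the 8mer began at base 1600 of the 1677-base 3′-UTR and left 70 bases to the annotated end of the transcript. It was present in both of the 2 annotated coding transcripts of Il33 that have a 3′-UTR. Of the sites shown for comparison, that of Irak3 lies at chr10:120142208-120142213 on the minus strand and that of Rela at chr19:5647820-5647825 on the plus strand. The site of Chuk lies in exon 12 of 21 at chr19:44087969-44087976 on the minus strand, and that of Ptgs2 in exon 8 of 10 at chr1:150104310-150104316 on the plus strand.

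Among the 10 members the 3′-UTR of Il33 alone held a match, also when only the 6mer was asked for. The 3′-UTRs of the other 9 members were 334 to 3864 bases long and held none of these letters, and neither did the coding region of any member. An 8mer was found in the 3′-UTR of 47 of 11745 compared genes with an annotated 3′-UTR (0.400%), and of 9 of the 2012 whose 3′-UTR was 0.8 to 1.25 times as long as that of Il33 (0.447%). Among the other 94 genes of the pathway lists described below, a 6mer was present in 2 of 93 3′-UTRs, those of Irak3 and Rela, against 6.77% of all compared genes. Coding regions held a 6mer in 14 of 94 pathway genes, against 16.3% of all compared genes, and Chuk was the one with an 8mer there. Only uninterrupted matches to the seed were searched. A match is a stretch of letters and was not tested as a binding site.

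**Figure D1:**
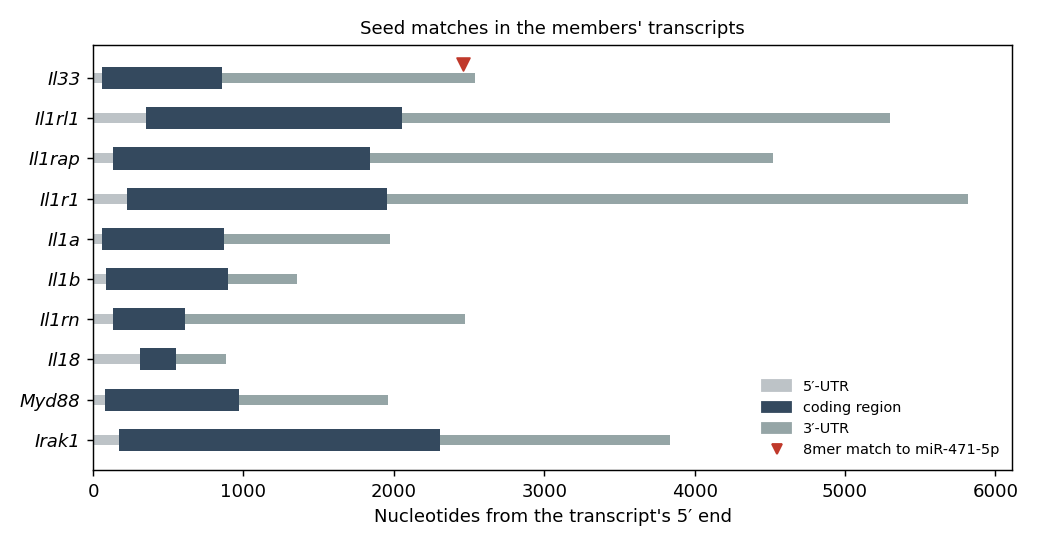
Annotated transcript with the longest 3′-UTR of each member, drawn to scale in nucleotides from the 5′ end, with thin bars for untranslated regions and thick bars for coding regions. The triangle marks the 8mer match to the seed of miR-471-5p in Il33, and no 6mer or longer match was found in the other 9 members.

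The libraries were of similar depth, with 18628310 (mimic) and 18717225 (scramble) reads on genes. Reads of a gene in the respective library are called mimic reads and scramble reads. Levels are given as CPM, counts scaled to the library total with TMM, and 3 reads correspond to 0.161 CPM in either library. The mimic-to-scramble ratio was taken for 12186 genes, called compared genes here, that had at least 20 reads over both libraries. Its 95% interval was derived by the exact Clopper-Pearson method from the share of a gene's reads that were mimic reads, and it covers counting error only. The 12 Sertoli markers, 7 of them compared genes, summed to 779 CPM (mimic) and 978 CPM (scramble). Most of this was Kitl, with 12245 mimic and 16163 scramble reads and the lowest log2 ratio of the list (-0.40), and the 11 others summed to 123 and 112 CPM. Wt1 was the highest by log2 ratio at 1.06, with 73 reads against 35. Clu had 217 reads against 163, Inha 122 against 80 and Inhbb 314 against 380. Sox9 had 1228 mimic and 1070 scramble reads and Gata4 had 341 and 365, whereas Amh had 5 and 5 and Fshr had 0 in both.

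Il33 had 463 mimic and 13 scramble reads, or 24.8 CPM (95% Poisson interval 22.6 to 27.2) against 0.696 CPM (0.371 to 1.19). Its level in Ago2-bound RNA was thus low in the scramble library, and it was readily detected in the mimic library. The ratio was 35.6-fold, or 5.15 on the log2 scale (95% interval 4.37 to 6.07). Of the 12186 compared genes, only Sprr1a, with 37 mimic reads against 0, and Rnf152, with 79 against 2, ranked above Il33. Both had far fewer reads than Il33. Of the 47 genes with an 8mer in the 3′-UTR, Il33 had the highest log2 ratio, and the next was 5430407P10Rik, with 65 reads against 9 and a log2 ratio of 2.85. Il33 was chosen by its reads in these libraries, where only Sprr1a and Rnf152 ranked higher. Its first place among these 47 genes was therefore fixed beforehand. The 46 other genes had a median log2 ratio of 0.13, with 8 of them at 1 or more and 2 at -1 or less, where 3.96% and 3.08% of all compared genes were. The pathway genes whose shorter or coding-region sites are shown above had log2 ratios of 0.38 (Irak3), 0.26 (Rela), -0.29 (Chuk) and 0.23 (Ptgs2). These sites are a selection. Compared pathway genes with no longer match than a coding-region 6mer ran from -1.64 (Peli3) to 0.45 (Nfkbib).

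Of the other ligand genes, none was as abundant in the mimic library as Il33. Il18, which encodes a cytokine that induces interferon gamma in lymphocytes, had 67 mimic and 57 scramble reads, a log2 ratio of 0.23 (95% interval -0.30 to 0.77). The interval spans 0, so a difference was not detectable at this depth. Il1a, which encodes IL-1α, had 7 reads against 2, a log2 ratio of 1.81 (-0.59 to 5.11). With 9 reads in all it was not among the compared genes. Il1b, which encodes IL-1β, had 0 reads in both libraries, which allows up to 0.161 CPM in each when 3 reads are taken as the limit (upper end of the 95% Poisson interval 0.198 CPM). In the Ago2-bound RNA of this line, the ligand known best from Sertoli cells was therefore near the detection limit, as was IL-1β. Their total RNA in the cells was not measured.

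Il1rn encodes the IL-1 receptor antagonist, which occupies the IL-1 receptor without signalling. It had 380 mimic and 162 scramble reads, or 20.3 against 8.68 CPM. The ratio was 2.34-fold (95% interval 1.95 to 2.84), a log2 ratio of 1.23. Il33 and Il1rn were the members with a log2 ratio of at least 1, 2 of the 8 members compared, where 3.96% of all compared genes reached that ratio. Il33 was chosen by its reads in these libraries, so its place in this count was fixed beforehand. Il1rn was the only other such member. None of the 8 members had a log2 ratio of -1 or less, which 3.08% of compared genes had. The lower bound for Il1rn was a log2 ratio of 0.96, just under the threshold.

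The receptor genes Il1r1 (chr1:40225080-40317257) and Il1rl1 (chr1:40429570-40465415) lie close together on chromosome 1 of GRCm38 and Il1rap at chr16:26581704-26730117. All were detected in both libraries, and Il1rl1 differed most between them. Il1rl1 had 2469 mimic and 1538 scramble reads, a log2 ratio of 0.68 (95% interval 0.59 to 0.78). The gene encodes a membrane receptor and a soluble decoy form, and counts per gene do not separate them. Il1rap, the shared accessory chain, had 1454 reads against 1062 and a log2 ratio of 0.45 (0.34 to 0.57). For both chains of the IL-33 receptor, mimic reads thus exceeded scramble reads beyond counting error. Il1r1, the signalling receptor for IL-1, went the other way, with 3823 reads against 4217 and a log2 ratio of -0.14 (-0.21 to -0.08). The sign of the Il1r1 difference depended on the processing, since after regression on transcript length and GC content the value was 0.14.

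The adaptor gene Myd88 had 451 mimic and 312 scramble reads, a log2 ratio of 0.53 (95% interval 0.32 to 0.74). Irak1, which encodes the kinase that MyD88 brings to the receptor, had 1522 reads against 1478, a log2 ratio of 0.04 (-0.06 to 0.15). Myd88 was therefore higher in the mimic library by more than counting error, and no difference was detectable for Irak1. Counting over the 8 members compared, the interval lay above 0 for 5, namely Il33, Il1rn, Il1rl1, Il1rap and Myd88, where 31.5% of all compared genes had such an interval. It lay below 0 for 1 member, Il1r1, against 32.5% of all compared genes. The median log2 ratio of the 8 members was 0.49, against -0.00063 over all compared genes. Il33, chosen by its reads in these libraries, is part of both this median and the count of intervals above 0. At these depths about 2 in 3 genes differ beyond counting error, so an interval that leaves out 0 separates the libraries and not the treatments. In the annotation of GRCm38, exons of Myd88 overlap those of Acaa1a on the opposite strand and exons of Il1rap overlap those of the antisense gene Gm20319. Exons of Il1a and Il1b overlap those of Gm14023 and Il1bos on the opposite strand, and exons of Irak1 those of Mir5132 and Mir718 on the same strand. The strand setting used in counting is not given in the sources used here.

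**Figure D2:**
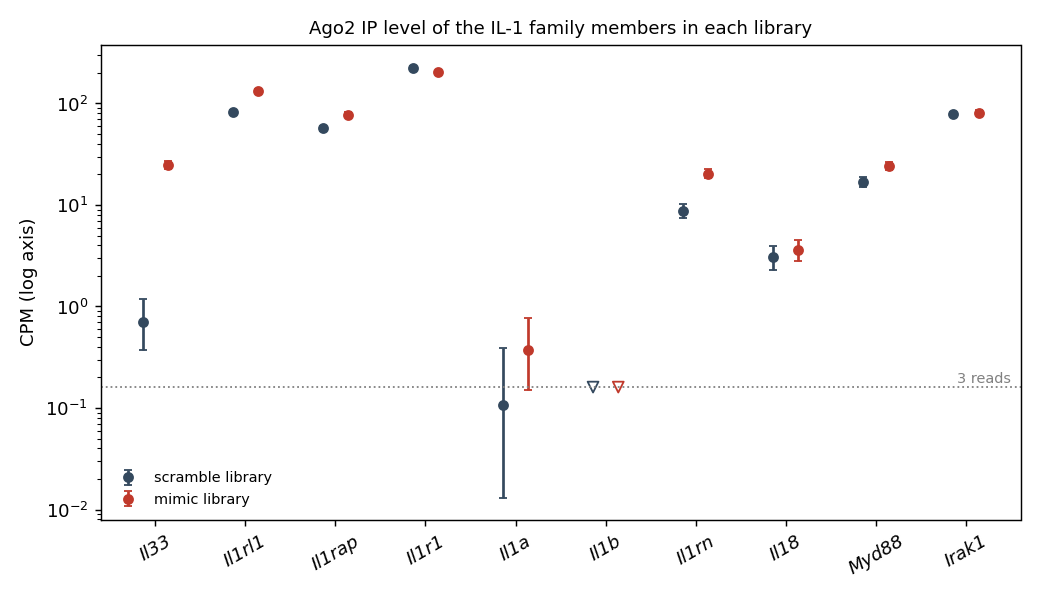
Level of each member in the scramble library (dark) and the mimic library (red) in CPM on a log axis, with 95% Poisson intervals for counting error (1 library each). Il33 was at 0.696 CPM (scramble) and 24.8 CPM (mimic), and the open triangles mark Il1b with 0 reads, drawn at the level of 3 reads (dotted line).

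**Figure D3:**
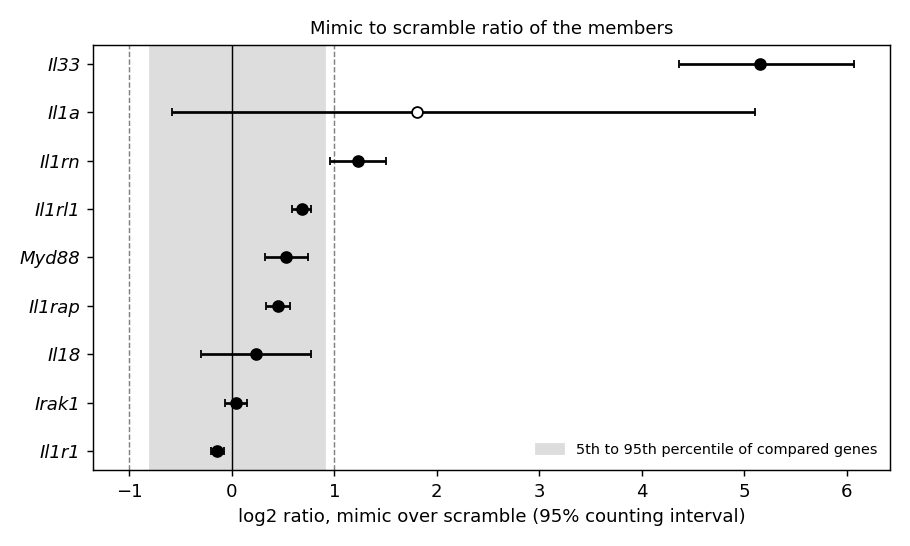
Log2 ratio of mimic to scramble for the 9 members with any read, with 95% counting intervals, the 5th to 95th percentile of all compared genes in grey (-0.80 to 0.91) and log2 ratios of -1 and 1 dashed. Il33 and Il1rn lie beyond 1, and Il1a (open point, 9 reads in all) has an interval that spans 0.

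**Figure D4:**
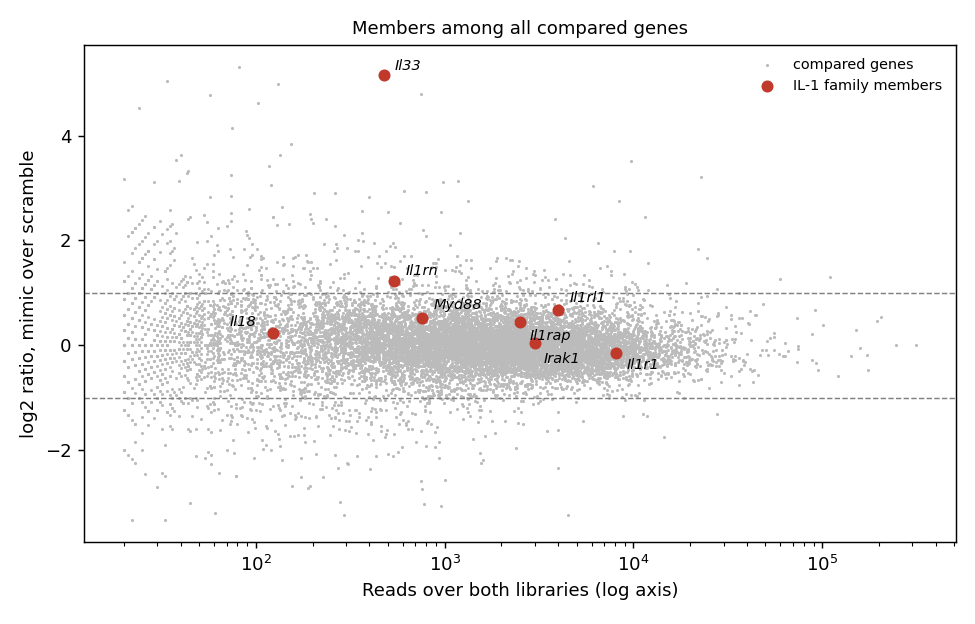
Log2 ratio of mimic to scramble against the reads over both libraries (log axis) for the compared genes in grey and the 8 members compared in red. Il33 stands above nearly all genes with as many reads, the other members lie within or at the edge of the cloud, and Sprr1a, with 0 scramble reads, has no finite ratio and is not drawn.

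Levels of different genes were set side by side per kilobase of annotated exon (RPKM from the scaled counts). On this scale Il1r1 was the highest member in both libraries, with 35.5 RPKM in the scramble and 32.2 in the mimic library. Il1rl1 was at 12.0 RPKM in the scramble library and 19.2 in the mimic library, and it passed Irak1, which stood at 16.8 and 17.3. The level of Il33 was 0.241 RPKM in the scramble library, where only Il1a and Il1b were lower, and 8.59 in the mimic library. In the mimic library it was next to Myd88, at 9.37 RPKM, and the ratio of these neighbours was 1.09 (95% interval 0.956 to 1.25). They did not differ beyond counting error, and neither did Il1rn and Il18 in the mimic library, at 3.68 and 3.48 RPKM. Il33 was above Il1rap in the mimic library, which had 6.85 RPKM, and above Il1rn and Il18. The other neighbours in the order differed beyond counting error, with Il33 over Il1a in the scramble library the closest case at a ratio of 4.45 (1.01 to 40.6). These levels rest on the exons of all annotated transcripts of a gene, so a gene that uses short transcripts is placed too low.

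The wider family and pathway were described through 94 further genes of the count tables, of which 61 had at least 20 reads. Their lists were chosen with earlier results of these data known, so counts from them are given as a description. Of these 61 genes, 5 had a log2 ratio of at least 1 and 2 of -1 or less, against 3.96% and 3.08% of all compared genes, and the median was 0.08. The 5 higher genes were Saa3, Mmp3, Lcn2, Mmp13 and Bcl3, and the 2 lower genes were Peli3 and Il1rl2. After regression on transcript length and GC content, Bcl3 was at 0.82 and Il1rl2 at -0.91, short of the threshold.

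Of the 10 ligand genes of the family in the tables, 3 were compared genes (Il33, Il1rn and Il18) and 5 had no read in either library. These were Il1b, Il1f10, Il1f5, Il1f6 and Il1f8, the last 3 being names of IL-36 genes. Of the 10 receptor genes 5 were compared, and their median was 0.32. None reached a log2 ratio of 1 and 1 was at -1 or less, against 3.96% and 3.08% of all compared genes. Il1rl2, which encodes the receptor for IL-36, had 30 mimic and 63 scramble reads, a log2 ratio of -1.07 (95% interval -1.75 to -0.42). Both chains of the IL-18 receptor are needed for signalling, and of these Il18rap had 85 reads against 68 whereas Il18r1 had 0 against 1. The list of decoys and inhibitors, which shares Il1rn with the ligands, had 4 of 7 genes compared and a median log2 ratio of 0.48. Il1rn was 1 of these 4 genes and the only one at 1 or more, and none was at -1 or less. Of all compared genes 3.96% were at 1 or more and 3.08% at -1 or less. The lowest of the list was Tollip, an adaptor that restrains IRAK1, with 1899 mimic and 2000 scramble reads. The decoy receptor gene Il1r2 and the inhibitory receptor gene Sigirr were near the detection limit, with 6 against 4 and 5 against 7 reads.

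The list of Myd88-Irak-Traf6 signalling genes was detected throughout, with all 19 genes compared and a median log2 ratio of 0.01. None had a log2 ratio of at least 1, and Peli3 had one of -1 or less, against 3.96% and 3.08% of all compared genes. Peli3, which encodes a ubiquitin ligase of the Pellino family acting on IRAK proteins, had 76 mimic and 237 scramble reads, a log2 ratio of -1.64 (95% interval -2.03 to -1.26). Ube2n, a ubiquitin-conjugating enzyme that works with TRAF6, was the highest of the list, with 781 reads against 459 and a log2 ratio of 0.77. Irak2, Irak3 and Irak4 had log2 ratios of -0.08, 0.38 and 0.11, and Traf6 and Map3k7, the gene of the kinase TAK1, had -0.15 and 0.01. Map3k3, which encodes another kinase of this pathway, had 900 reads against 1475 and -0.71. Over the list the interval lay above 0 for 5 genes, below 0 for 5 and spanned 0 for 9. Of all compared genes 31.5% had an interval above 0 and 32.5% one below 0. In the same order, counts were 2, 0 and 1 for ligands (Il33 included), 2, 2 and 1 for receptors, and 2, 0 and 2 for decoys and inhibitors. Of the lists described below, the NF-kB list had 7, 4 and 2 and the processing list 3, 3 and 2. Genes commonly induced through IL-1 receptors had 13, 2 and 3, and Toll-like receptors 1, 3 and 0.

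In the NF-kB list 1 of 13 genes reached a log2 ratio of 1, against 3.96% of all compared genes, and the median was 0.22. Bcl3, an atypical IkB protein that works with NF-kB in the nucleus, had 6161 mimic and 2914 scramble reads, a log2 ratio of 1.08 (95% interval 1.02 to 1.14). Rel was the lowest, with 16 reads against 23. The subunit genes of the alternative NF-kB pathway, Nfkb2 and Relb, had log2 ratios of 0.52 and 0.50, while Nfkb1 had -0.51 and Rela 0.26.

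IL-1 family cytokines are often activated or inactivated by proteases. Of the 19 genes listed for such processing, 8 were compared and none passed a log2 ratio of 1 in either direction, with a median of 0.02. Of all compared genes 3.96% were at 1 or more and 3.08% at -1 or less. Casp4 was the highest, with 1341 mimic and 834 scramble reads and a log2 ratio of 0.68. Nek7 was the lowest, with 1003 against 1980 reads and -0.98. Casp1, the enzyme that matures IL-1β and IL-18, had 16 reads against 3, and the inflammasome genes Nlrp3 and Pycard had 0 against 1 each.

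Genes that cells commonly induce when IL-1 receptors are engaged were in part higher in the mimic library. Of 22 such genes 18 were compared, and 4 of them had a log2 ratio of at least 1, against 3.96% of all compared genes. None had -1 or less, against 3.08% of all compared genes. The median was 0.25. This list was chosen with earlier results of these data known, so its counts are given as a description. Signalling through these receptors was not tested. Saa3, an acute-phase protein, had 231 mimic and 31 scramble reads, a log2 ratio of 2.90 (95% interval 2.35 to 3.49). The matrix metalloproteinase genes Mmp3 and Mmp13 had 426 against 73 and 269 against 77 reads, with log2 ratios of 2.54 and 1.80. Lcn2, which encodes the iron-sequestering protein lipocalin 2, had 628 reads against 136 and a log2 ratio of 2.21 (1.94 to 2.48).

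None of the compared chemokine and cytokine genes on the same list reached a log2 ratio of 1. Cxcl2 was the highest of them at 0.93, with 19 reads against 10 and an interval (-0.25 to 2.19) that spans 0. Lif had 219 reads against 137 and a log2 ratio of 0.68 (0.36 to 0.99). Cxcl1 had 2260 mimic and 1881 scramble reads, a log2 ratio of 0.26. Ccl2 had 10678 against 10119 reads and 0.08, and Il6 had 370 against 290 reads and 0.35. Tnfaip3, Nfkbia and Nfkbiz, feedback regulators of NF-kB, had log2 ratios of -0.22, 0.22 and -0.02. Vcam1 was the lowest of the list at -0.29.

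**Figure D5:**
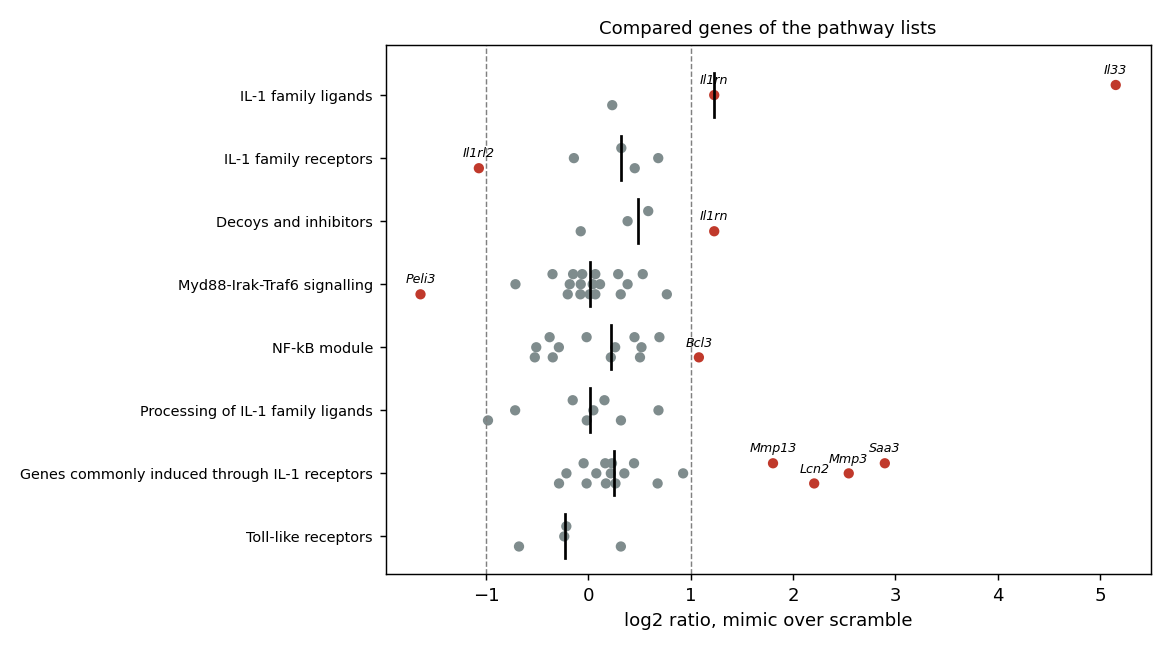
Log2 ratio of mimic to scramble for the compared genes of each pathway list, with genes past -1 or 1 (dashed) in red and named, the list's median as a black bar, genes of several lists drawn on each and vertical offsets without meaning. Apart from Il33 and Il1rn, genes past 1 were Bcl3 and 4 genes commonly induced through IL-1 receptors (Mmp13, Lcn2, Mmp3 and Saa3), and genes past -1 were Il1rl2 and Peli3.

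Markers of cells that could have been present beside TM4 cells were low in both libraries, apart from Acta2 and Gata3. Of 8 macrophage markers 2 were compared genes, their summed level was 6.0 CPM (mimic) and 3.54 CPM (scramble), and Ptprc, Emr1 and Itgam had no read. Cd14, which is also made by cells other than macrophages, accounted for the difference, with 81 reads against 26 and a log2 ratio of 1.64, while Csf1r had 18 against 25. Of 10 markers of mast cells, ILC2 and type 2 lymphocytes, the cells through which IL-33 is best known to act, 6 had no read in either library, among them Il5, Il13 and Il4. Gata3 made up most of their summed level of 30.4 CPM (mimic) and 28.4 CPM (scramble), with 540 reads against 433, and Rora had 24 reads against 96. Fcer1a, which marks mast cells, was at 0 as well. The part of these markers in the values of the IL-1 family genes was not tested.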

How the data were processed

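The authors deposited raw, whole-number counts of reads for each of 22609 gene symbols, and 5 further entries that summarise unassigned reads. The submitters' processing notes name CASAVA 1.8.2, TopHat2 2.0.8b and HTSeq, with build mm9, whereas the annotation and the strand setting are not given in the sources used here. Genes held 52.7% (mimic) and 55.9% (scramble) of all entries. Alignments to several places, which were left out of library sizes, held 39.8% and 35.6%, those outside genes 6.84% and 7.89%, and ambiguous ones 0.653% and 0.585%.

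Library sizes were scaled by TMM in edgeR 4.0.16 (R 4.3.3) over genes with at least 20 counts. With 1 library per condition no test across genes could be fitted, so no p-value is given, and genes past a log2 ratio of 1 were counted instead. Calculations and plots used Python 3.11.15 with numpy 2.4.6, scipy 1.17.1, pandas 2.3.3 and matplotlib 3.10.9. The ratio and its interval were tested on simulated counts that held counting error only, so spread between replicates was not covered. Lengths, 3′-UTRs and coding regions (longest per gene, protein-coding transcripts) came from GENCODE M21 of GRCm38, matched by symbol or RefSeq synonym for 12076 of 12186 compared genes. The genome build therefore differs from that of the counts, and coordinates are those of GRCm38. The miRNA sequence is from RefSeq.

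The members and lists were chosen with earlier results of these data known. Genes named were the members, pathway genes past a log2 ratio of 1, the highest and lowest gene of each pathway list, the 5 genes nearest to Il33 in ratio among those with at least 100 counts, and marker genes with at least 20 counts. Further list genes were named for their role after their values were seen. Alternatives were DESeq2 1.42.0 size factors, total counts and upper-quartile scaling, a prior count of 2, a regression of the log2 ratio on 3′-UTR and coding length and GC content, other count filters, thresholds of 0.5 and 1.5, and 99% intervals. A few genes of the lists are not reported here by name.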

Additional observations from a re-analysis of the deposited data

How the results depend on the processing

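The log2 ratios of the 8 members compared moved by at most 0.018 under DESeq2 size factors, total counts or upper-quartile scaling, and by at most 0.20 with a prior count of 2, which took Il33 from 5.15 to 4.95. Regression on transcript length and GC content explained 18.3% of the variance of the log2 ratio over 11744 genes. With it Il1rl1 was at 0.92 and Il1rap at 0.69, and Il1r1 reversed to 0.14. Members above the threshold numbered 4 when it was 0.5 and 1 when it was 1.5 (2 at 1), where 14.9% and 1.66% of all compared genes passed. Il33, which was chosen by its reads in these libraries, is in each of these counts. Without a count filter, members at 1 or more numbered 3 and higher ligand genes 3, with Il1a (7 reads against 2) added to both. Higher induced genes numbered 5, with Icam1 (14 reads against 2) added. At -1 or less, 1 ligand gene (Il1f9, 1 read against 3) and 1 Toll-like receptor gene (Tlr7) were added, and at 1 or more 1 processing gene (Casp1). Of the 14388 genes with at least 1 read in each library, 5.90% were at 1 or more and 5.96% at -1 or less. With at least 200 counts, 0 receptor genes were at -1 or less, because Il1rl2 was no longer compared. Of all genes in that setting 1.89% were at -1 or less. Under the same regression, applied to the pathway lists after the data were seen, 0 NF-kB genes were at 1 or more (Bcl3 0.82) and 0 receptor genes at -1 or less (Il1rl2 -0.91). Of all genes in the regression 2.97% were at 1 or more and 2.58% at -1 or less. The other 153 of 164 values stayed within their interval or within 1.5 times of the count. No paired analysis was possible because each condition has 1 library, and for the same reason no replicate could be left out. Depth limits the values of Il18, Il1a and Il1b.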

Other observations

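The 5 genes with at least 100 counts whose log2 ratio was nearest that of Il33 (5.15), by the absolute difference over these 2 libraries and among 10777 candidates, were BC005764, Gchfr, Fam19a2, Gpr35 and Nos2. BC005764 had 127 mimic and 4 scramble reads, a log2 ratio of 4.99. Gchfr, which encodes the feedback regulator of GTP cyclohydrolase, the enzyme that starts synthesis of the nitric oxide synthase cofactor tetrahydrobiopterin, had 720 reads against 26 and a log2 ratio of 4.79. Nos2, which encodes the inducible nitric oxide synthase, had 124 against 10 reads and a log2 ratio of 3.63. Fam19a2 had 99 against 4 and a log2 ratio of 4.63, and Gpr35 had 144 against 10 and a log2 ratio of 3.85. BC005764 was not matched to the annotation, so its 3′-UTR was not searched. No 8mer match to miR-471-5p was found in the annotated 3′-UTRs of Gchfr, Fam19a2, Gpr35 and Nos2.

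Il33 was chosen by its reads in these libraries, so genes beside it on the chromosome were unlikely to share its ratio, and none did. In the RefSeq annotation, 9930021J03Rik and Ranbp6 precede it among protein-coding genes of the tables and Trpd52l3 and Uhrf2 follow. Ranbp6 had 790 mimic and 904 scramble reads, a log2 ratio of -0.20, Uhrf2 had 4685 against 5517 and -0.24, and 9930021J03Rik had 3056 against 3367 and -0.14. Trpd52l3 had 2 reads in each library. On chromosome 1 the receptor genes Il1r2, Il1r1, Il1rl2, Il1rl1, Il18r1 and Il18rap lie in this order. Within this cluster log2 ratios ran from -1.07 in Il1rl2 to 0.68 in its neighbour Il1rl1, and these intervals do not overlap.

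Toll-like receptors share MyD88 with the IL-1 family. Of 12 such genes 4 were compared, with a median log2 ratio of -0.23, and none passed 1 in either direction. Of all compared genes 3.96% were at 1 or more and 3.08% at -1 or less. Tlr3, whose product signals without MyD88, was the highest at 0.32, with 243 reads against 195, and Tlr6 the lowest at -0.68, with 35 against 56. Of the remaining marker lists, Leydig markers summed to 4.50 CPM (mimic) and 4.71 CPM (scramble), with Star at 60 reads against 69. Endothelial markers summed to 2.68 and 3.21 CPM, with Tek at 44 reads against 51. Germ cell markers summed to 9.21 and 10.0 CPM, with Ddx4 the lowest at 46 reads against 74 and Prm1 the highest at 12 against 9, while Sycp3 had 58 against 48 and Prm2 44 against 39. Of the peritubular myoid markers Acta2 had 73076 reads against 101778 and Cnn1 11 against 17.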
